A study of Mus musculus with 2 samples.

Results

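Cluster 5 of the FGF2-treated salivary gland organoids is a group of stromal cells led by Igfbp5, Cd24a and Nr4a2. Its members here are all genes that the authors' deposited table for the FGF2 library lists under cluster number 5. There were 294 of them, out of 3058 genes listed for any of the 17 clusters of that library. The genes listed with a higher average numbered 177, which is 5.79% of the 3058 genes listed. The genes listed with a lower average numbered 117, which is 3.83% of those listed. The authors' adjusted p-values equal the raw ones times 20056, a factor taken here as the number of genes in their data. Of that number the higher genes were 0.883% and the lower genes 0.583%. How many genes were tested for each cluster is not known. Cluster 5 held 7.33% of the cells of its library.

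The libraries were made from stroma of organoids, small tissue-like aggregates grown in culture, from embryonic salivary gland of CD-1 mice, an outbred stock. The age label reads embryonic day 16 with 7 added, and the meaning of the added 7 is not given in the sources used here. One library came from control organoids and the other from organoids with FGF2, a fibroblast growth factor, whose dose and timing are likewise not given. Per the labels, the control library was captured from 5023 cells and the one with FGF2 from 10107, with the 10x Chromium 3' droplet method, and no genetic change is named for either group. With 1 library per group there was no replicate, so no difference below carries a test.

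IGFBP5 is a secreted protein that binds insulin-like growth factors, and through them and through the matrix it modulates the growth of mesenchymal cells. CD24 is a small, heavily glycosylated protein anchored at the cell surface, best known from progenitor and immune cells. NR4A2 and its relative NR4A1 are orphan nuclear receptors whose genes are switched on within a short time of growth factor, cAMP or calcium signals. In the developing salivary gland the stroma supplies growth factors, matrix and retinoid and FGF signals to the branching epithelium.

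Each gene is given by 2 measures in the authors' deposited table. The share is the percentage of cells with a value above 0, in cluster 5 and in all other cells of the library. The fold is the ratio of the average in cluster 5 to that in the other cells, with 1 added to each average, so that it understates the difference of a low gene. Every listed natural log ratio was 0.25 or more in either direction, and the larger of both shares was never under 25.1%. Every member therefore had to differ, and the counts of members are a description of the list. The clusters were drawn from these same values.

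**Figure D1:**
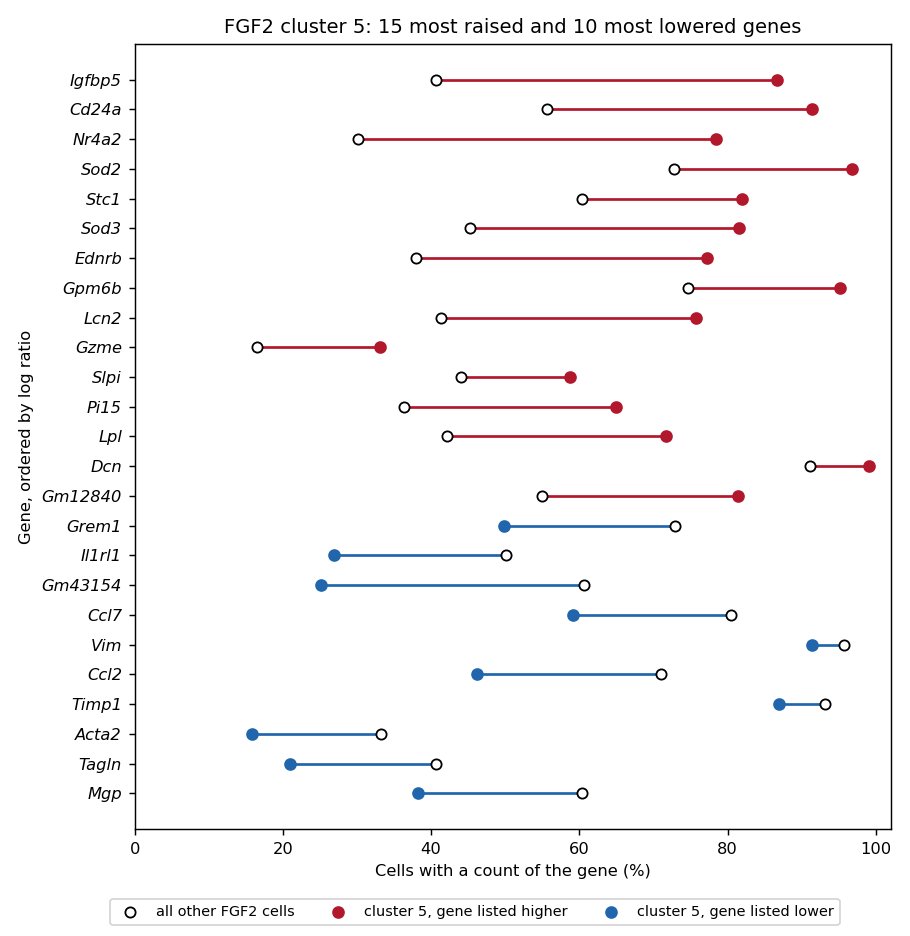
Percentage of cells with a value above 0 for the genes with the largest and the most negative log ratio in FGF2 cluster 5, in the cluster and in all other cells of the library. Igfbp5 was found in 86.6% of cluster 5 cells against 40.7% of the other cells, and Mgp in 38.3% against 60.3%.

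Igfbp5 had the largest log ratio of the list. It was found in 86.6% of cluster 5 cells against 40.7% of the other cells, a fold of 4.47. Cd24a followed at 91.4% against 55.6% and a fold of 3.44. Next came Nr4a2 at 78.4% against 30.1% and a fold of 3.11. The gene after these was Sod2, the mitochondrial superoxide dismutase, at 96.8% against 72.8% and a fold of 3.08. Sod3, the extracellular superoxide dismutase, was found in 81.5% against 45.3% of cells, with a fold of 2.68. Both superoxide dismutase genes in the FGF2 table were thus listed higher for the cluster. Both were also listed higher for cluster 7, with Sod2 in 94.0% and Sod3 in 97.1% of its cells.

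Several of the next genes encode secreted or membrane signalling proteins. Stc1, which encodes the glycoprotein hormone stanniocalcin 1, was found in 81.9% against 60.4% of cells. Ednrb, the endothelin B receptor, was found in 77.2% against 37.9%. Gpm6b, a proteolipid-family membrane protein, was found in 95.1% against 74.6%. These 3 genes had folds of 2.72, 2.63 and 2.62. Lpl, the lipase that releases fatty acids from lipoproteins, was found in 71.7% against 42.1%, with a fold of 2.36. Dcn, the collagen-binding proteoglycan decorin, was near saturation on both sides at 99.1% against 91.1%, so its fold of 2.31 reflects a higher level per cell more than a larger share. The remaining leading genes included Pi15, a secreted protease inhibitor, at 65.0% against 36.3%, and the predicted gene Gm12840 at 81.4% against 55.0%. Stc1, Gpm6b, Dcn, Pi15 and Gm12840 were also listed higher for cluster 7, at 89.2%, 97.4%, 99.5%, 82.7% and 81.7% of its cells. Ednrb and Lpl had no entry for cluster 7.

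Several genes known from innate defence were on the higher list. They were picked after their values were seen, from no list of such genes, and stood from the top to the lower part of the order by log ratio. Lcn2, the iron-siderophore-binding protein lipocalin 2, was found in 75.7% against 41.4% of cells, with a fold of 2.58. Slpi, a secreted inhibitor of leukocyte proteases, was found in 58.8% against 44.1%, with a fold of 2.46. Il1rn, the interleukin 1 receptor antagonist, was found in 32.4% against 11.4%, and Il1r1, the signalling receptor, in 78.8% against 49.8%. Cebpb and Cebpd, transcription factors of the acute-phase response, were found in 99.3% against 93.6% and in 91.8% against 84.7%. Their folds were 1.53 and 1.48, and no other C/EBP gene of this family was in the FGF2 table. Lbp, which binds bacterial lipopolysaccharide, was found in 61.9% against 48.1%. Gzme and Mcpt8, serine proteases known from cytotoxic lymphocytes and basophils, were found in 33.1% against 16.5% and in 45.3% against 25.5%. Slpi, Il1r1, Cebpb, Gzme and Mcpt8 were also listed higher for cluster 7, at 78.3%, 82.4%, 99.7%, 32% and 44.9% of its cells. The natural log ratio of Slpi was larger for cluster 7, at 1.31 against 0.901 for cluster 5. Lcn2, Il1rn, Cebpd and Lbp had no entry for cluster 7.

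Over the 177 higher genes the median share was 73.4% in cluster 5 against 55.2% in the other cells, and all 177 had the larger share in the cluster. The median natural log ratio was 0.39. At a ratio of 2 or more stood 20 genes, and 65 had at least a 1.5-fold larger share. The higher list therefore consisted mostly of genes that many other cells also expressed, and 15 of its genes were found in more than 90% of the other cells. Cluster 5 had the largest listed log ratio of any cluster for 112 of the 177 genes. Cluster 7 had it for 21, among them Igfbp5, and cluster 2 for 17. No other cluster listed 65 of the genes as higher. Only listed values were compared, so these 65 are among the 112 by that fact alone. At the edge of the list, 34 of the 294 members had a log ratio under 0.27 in size, and Plk2, a kinase induced by growth signals, stood just inside at 0.25 with shares of 49.7% and 39.7%. Genes just outside the limit were not listed, so they have no value for the cluster.

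Among the 117 lower genes the median share was 55.2% in cluster 5 against 72.9% in the other cells, with a median natural log ratio of -0.40. At least a 2-fold lower average was listed for 18 of them. The share was smaller in the cluster for 108 genes and equal or larger for 9. Mgp, the calcification inhibitor matrix Gla protein, led the lower genes at 38.3% against 60.3% of cells, with an average 4.39-fold lower. Timp1, an inhibitor of metalloproteinases, was found in 86.9% against 93.1%, with an average 2.94-fold lower. Cluster 5 had the most negative listed log ratio of any cluster for 21 of the lower genes, Mgp among them.

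Nr4a2 and Nr4a1 were the members of the NR4A family on the higher list, and the remaining one, Nr4a3, was in the FGF2 table but not listed for cluster 5. Nr4a1 and Nr4a3 were listed higher for cluster 7, at 85.6% and 33.8% of its cells, and Nr4a2 had no entry there. Promoter sequences of Nr4a2 and Nr4a1 are shown because cAMP response elements upstream of the start are a well known route of their rapid induction. They are from the RefSeq table of build GRCm38.p6 and run 5' to 3' from 250 bases before to 50 bases after the transcription start. Capitals mark TGACG, the core of the cAMP response element, or CGTCA, the same core on the other strand. The Nr4a2 window is chr2:57123954-57124253 on the minus strand and the Nr4a1 window is chr15:101266596-101266895 on the plus strand. The Nr4a1 window lies inside the annotated gene, chr15:101254269-101274795, so its start is an internal one and not the first base of that gene.
Nr4a2: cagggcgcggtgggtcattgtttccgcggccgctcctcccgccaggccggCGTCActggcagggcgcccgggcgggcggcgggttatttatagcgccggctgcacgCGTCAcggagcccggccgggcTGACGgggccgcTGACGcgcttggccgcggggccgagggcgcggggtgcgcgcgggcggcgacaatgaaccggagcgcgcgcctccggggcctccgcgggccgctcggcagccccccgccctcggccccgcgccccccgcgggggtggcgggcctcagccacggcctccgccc
Nr4a1: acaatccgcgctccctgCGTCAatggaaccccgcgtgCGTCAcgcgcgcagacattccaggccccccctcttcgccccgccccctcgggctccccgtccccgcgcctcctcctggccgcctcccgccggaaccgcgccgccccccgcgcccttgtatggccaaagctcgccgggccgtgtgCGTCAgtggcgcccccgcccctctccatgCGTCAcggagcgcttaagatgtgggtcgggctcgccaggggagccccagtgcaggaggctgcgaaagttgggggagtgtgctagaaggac
Both windows held 4 copies of the core. They lay 200, 144, 123 and 111 bases before the start in the Nr4a2 window and 233, 213, 69 and 40 bases before that in the Nr4a1 window. Counts were made by gene, with 1 chromosome of the RefSeq table left out. Of the 138 higher genes with a promoter in the rest, 45 (32.6%) held at least 1 TGACG on either strand. This compared with 20 of 88 (22.7%) lower genes and 6228 of 27025 (23.0%) genes in the rest of that table. At least 4 copies were found in 2 of the 138 (1.45%), which were Nr4a2 and Nr4a1, in 1 of the 88 (1.14%), Slc25a3, and in 69 of the 27025 (0.255%). The cut of 4 equals the number in the 2 promoters shown. The higher list therefore had to hold these 2, and its percentage is not read against the others. The full palindrome TGACGTCA, which contains the core on both strands, was found in 4 of the 138 (2.90%), 3 of the 88 (3.41%) and 549 of the 27025 (2.03%). These matches are letters in a window and not measured binding.

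**Figure D2:**
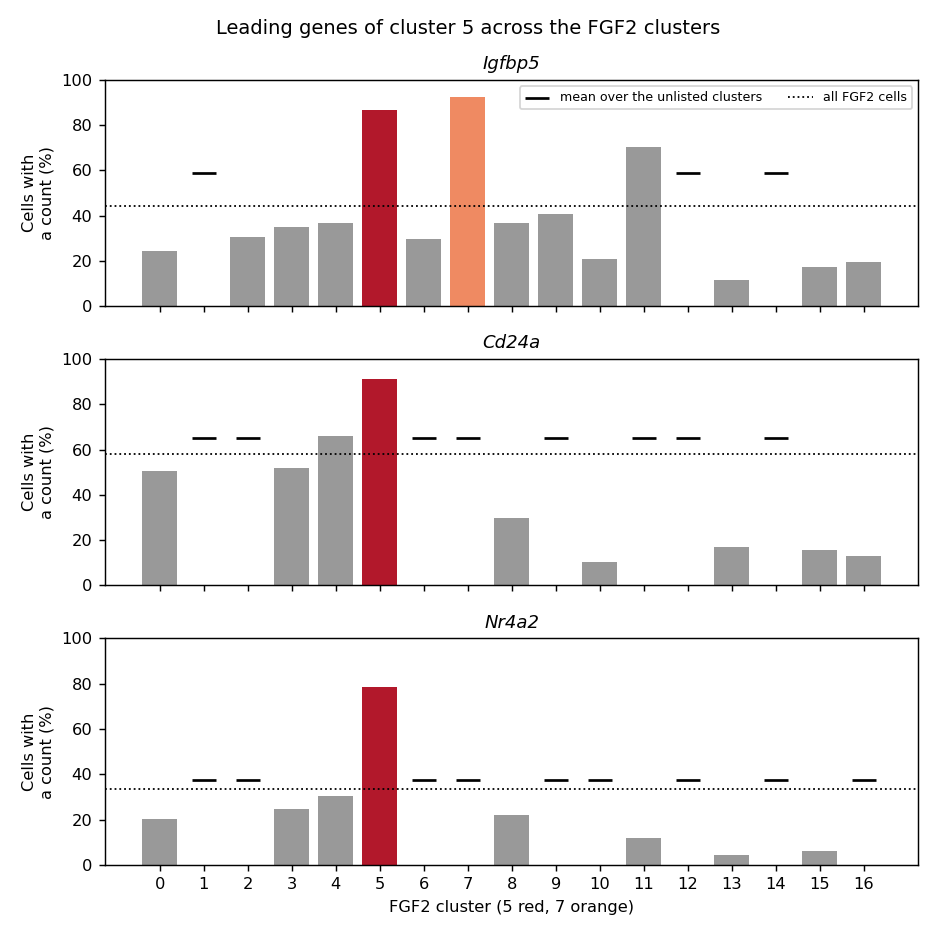
Percentage of cells with a value above 0 in each cluster of the FGF2 library for Igfbp5, Cd24a and Nr4a2, as bars where the authors' table lists the gene for that cluster. Short lines mark the joint share of the clusters without a listed value and the dotted line that of all cells. Igfbp5 reached its largest share in cluster 7 (92.2%), while Cd24a and Nr4a2 reached theirs in cluster 5 (91.4% and 78.4%).

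Across the clusters of the FGF2 library, Igfbp5 was not particular to cluster 5. The gene lies at chr1:72857932-72874884 on the minus strand (GRCm38, GENCODE annotation, protein coding). Its share was 92.2% in cluster 7, 86.6% in cluster 5 and 70.1% in cluster 11. All other clusters listed for it had 40.6% or less, down to 11.3% in cluster 13. Cluster 11 carried epithelial markers, with Epcam in 73.5% and the basal keratin Krt14 in 50.5% of its cells. Clusters 1, 12 and 14 were not listed for Igfbp5 and together came to 58.9%. Over the whole library the share was 44.1%.

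Cd24a, at chr10:43578284-43584265 on the plus strand, was listed higher for cluster 5 and for no other cluster of the FGF2 library. Cluster 4 had the next listed share at 65.9%, with a negative log ratio of -0.52, followed by cluster 3 at 51.8% and cluster 0 at 50.5%. The 8 clusters without a listed value, among them clusters 7 and 11, together came to 65.0%. The single values behind that joint share cannot be told apart. Nr4a2, at chr2:57106830-57124003 on the minus strand, was also listed higher for cluster 5 alone. The next listed share was 30.2% in cluster 4, and the 9 clusters without a listed value together came to 37.7%. In droplet data free RNA can put a count into a cell that does not express a gene. Cluster 15, which carried the mast cell genes Cpa3 and Tpsb2 in 100% of its cells, had 17.2% for Igfbp5, 15.6% for Cd24a and 6.2% for Nr4a2, and listed shares near these levels are not read here as expression. The depth per cell of both clusters was unknown.

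Nr4a1, at chr15:101254269-101274795 on the plus strand, differed from Nr4a2 in its spread. It was found in 85.6% of cluster 7 cells, 79.2% of cluster 5 cells and 61.0% of cluster 1 cells, and in 44.5% or less of the other listed clusters. Scara5, a ferritin receptor and a marker of some fibroblasts, was found in 74.8% of cluster 5 cells and 29.3% of all other cells. In the 4 other clusters listed for it the share was 9.1% or less, and 12 clusters had no listed value. Kcnj8 and Abcc9, which encode the pore and the regulatory subunit of one ATP-sensitive potassium channel, were listed for cluster 5 only. Kcnj8 was found in 35.5% of cluster 5 cells against 6.0% of the other cells, and Abcc9 in 32.1% against 8.2%.

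Marker lists of cell types were read against the label of a stromal cluster. Of the 11 fibroblast markers, Dcn, Prrx1 and Twist2 were listed higher and none lower. Prrx1, a homeobox gene of limb and craniofacial mesenchyme, was found in 99.5% against 94.0% of cells, and Twist2 in 80.4% against 69.0%. The other 8, including Pdgfra and the fibrillar collagen genes, were not listed for cluster 5. For Pdgfra, the clusters without a listed value, cluster 5 among them, together came to 88.3%. No marker of epithelium (9 in the FGF2 table), Schwann or glial cells (6), macrophages (4), neutrophils (2), mast cells (7) or cycling cells (7) was listed for the cluster. The absence of an entry set only an upper bound on the share in cluster 5, reached if every cell with the gene in the unlisted clusters had belonged to it. Over the epithelial markers this bound ran from 7.95% for Cldn4 to 100% for Krt18, with 33.1% for Epcam, and the basal keratin Krt14 had 10.6%. It ran from 2.71% (Ccl6) to 22.5% (Fcer1g) for macrophages, from 1.36% (Fcer1a) to 99.0% (Cma1) for mast cells and from 22.2% (Ccnb1) to 100% for cycling cells. Among Schwann and glial markers it was 0% for Foxd3 and Cdh19, 3.45% for Sox10 and 100% for S100b, and for the neutrophil markers S100a8 and S100a9 it was 100% and 40.7%. For markers with a bound near 100% the table leaves the share in cluster 5 unknown. A large share with a much higher average than in the other cells would have been listed. The bounds are therefore loose limits and not estimates of the share. Of the 8 pericyte markers, Kcnj8 and Abcc9 were listed higher, Cspg4 and Pdgfrb were in the table but not listed for cluster 5, and Rgs5, Mcam, Notch3 and Higd1b were not in the table. Acta2, on the basal or myoepithelial list, and Stmn2, on the neuronal list, were listed lower. The endothelial, muscle and chondrocyte lists each had 1 gene in the table, not listed for the cluster, and the lymphocyte and erythroid lists had none.

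**Figure D3:**
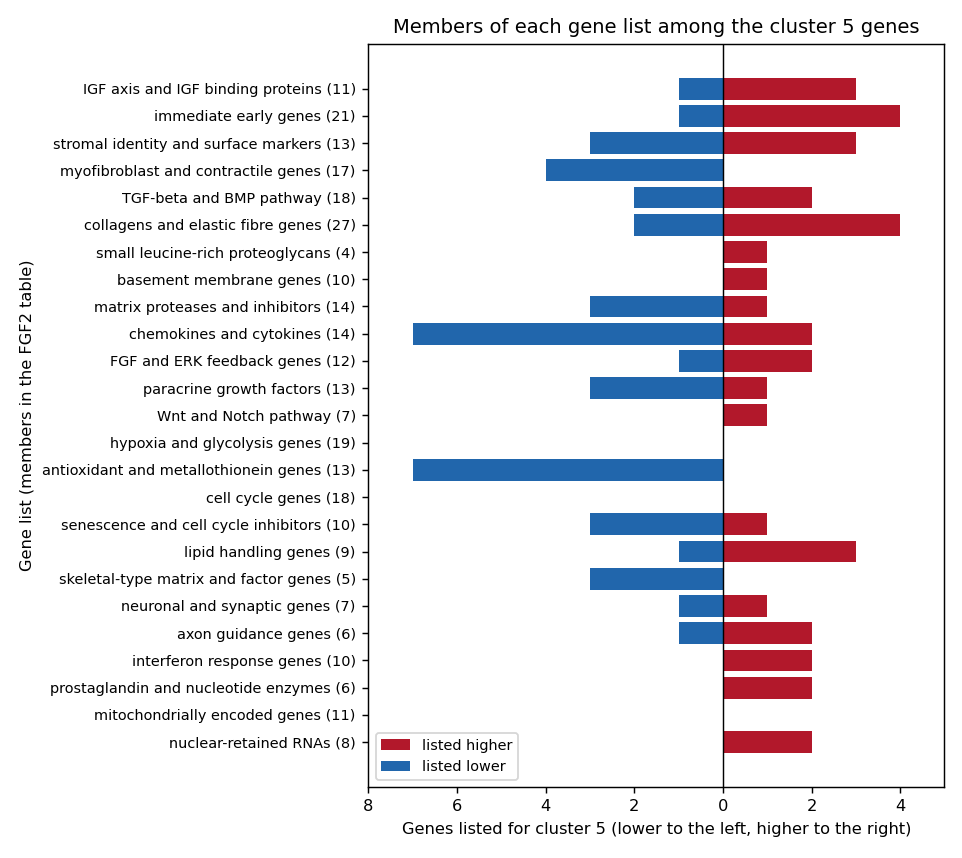
Number of genes of each functional list that the authors' table gives as higher or lower in FGF2 cluster 5 than in the other cells, out of the genes of the list present in the FGF2 table. All 4 contractile genes and all 7 antioxidant genes listed for the cluster were lower.

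Functional lists are described by counts, beside the 5.79% higher and 3.83% lower over all 3058 listed genes. Of 11 genes of the insulin-like growth factor axis, Igfbp5, Igfbp3 and Igfbp7 were listed higher and Igfbp6 lower. Igfbp3, the main carrier of these factors in serum, was found in 71.5% against 47.4% of cells, with a fold of 2.13. Igfbp7 was found in 99.5% against 95.8%, and Igfbp6 in 48.9% against 66.2%. The receptors Igf1r and Igf2r, the ligand Igf2 and the protease Pappa, which cleaves the binding proteins, were not listed for the cluster.

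Of 21 immediate early genes, 4 were listed higher, 1 lower and 16 not at all. Beside Nr4a1 (79.2% against 40.0%, fold 2.24) and Nr4a2, the higher genes were Ier3 at 97.7% against 93.0% and the AP-1 subunit Fosl2 at 75% against 62.9%. Klf6 was lower at 35.2% against 53.2%. Fos, Jun and Egr1, the best known genes of the list, were among the 16 without an entry. Some further signalling genes of the higher list were picked after their values were seen, from no list. Crem, a cAMP-responsive transcription factor, was found in 49.1% against 29.1%. The phosphodiesterases Pde10a and Pde4b, which degrade cyclic nucleotides, were found in 32.4% against 14.2% and in 48.7% against 31.7%, and Pde4d, the remaining one of 3 phosphodiesterase genes in the FGF2 table, had no entry for the cluster. Rgs2, a regulator of G-protein signalling, was found in 69.6% against 39.6%, with a fold of 1.98. Nfil3, a bZIP transcription factor, was found in 68.6% against 36.5%.

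Contractile genes were listed only in the lower direction. Of 17, Acta2, Tagln, Tpm1 and Myh9 were lower, and 13 had no entry. Tagln (transgelin) was found in 20.9% against 40.7% of cells, with an average 3.69-fold lower. Acta2, the actin of smooth muscle and myofibroblasts, was found in 15.8% against 33.2%, with an average 3.50-fold lower. Low values of both were not particular to cluster 5, and cluster 1 had the most negative listed log ratio for each. Acta2 was found in 18.3% of cells in cluster 1, 18.7% in cluster 0 and 27.9% in cluster 7. Tagln was at 19.8%, 26.3% and 34.6% there. In cluster 4 the shares were 83.7% for Acta2 and 95.9% for Tagln, and in cluster 13 they were 76.8% and 88.7%. Tpm1 was found in 88.1% against 91.9% and Myh9 in 53.2% against 68.1%. The cytoskeletal gene Vim was found in 91.4% against 95.7% of cells, with an average 2.35-fold lower. The cytoplasmic actins Actb and Actg1 and the thymosins Tmsb4x and Tmsb10, which bind actin monomers, were on the lower list as well. So were the calcium-binding S100a4, S100a6, S100a10 and S100a11, out of 10 S100 genes in the table, and the annexins Anxa1, Anxa2 and Anxa5, out of 6. No S100 gene and no annexin was listed higher. These families were picked after their values were seen. Vim, Actb, Actg1, Tmsb4x, Tmsb10, S100a6, S100a10, S100a11, Anxa1 and Anxa2 were also listed lower for cluster 7. S100a4 and Anxa5 had no entry there. S100a10 and its partner Anxa2 were found in 48.9% against 81.3% and in 66.1% against 82.3% of cells.

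Matrix genes were divided. Of 27 collagen and elastic fibre genes, Fbln1, Mfap4, Sparc and Tnc were listed higher, Fn1 and Mfap5 lower, and 21 had no entry. Fbln1 (fibulin 1) had a share 19.5 points above the 70.5% of the other cells, with a fold of 1.98. Mfap5, a microfibril protein, was found in 16.5% against 44.3%, while Mfap4 was found in 57.2% against 41.5%. Fn1 (fibronectin) was found in 95.5% against 95.9%, with an average 1.54-fold lower. Dcn was the member of the small leucine-rich proteoglycan list with an entry (1 of 4), and Nid1, a basement membrane linker, that of its list (1 of 10), at 89.6% against 74.2%. Of 14 matrix proteases and inhibitors, Adamts1 was higher and Mmp10, Mmp13 and Timp1 were lower. Of 5 skeletal-type genes, Spp1, Mgp and the pyrophosphate transporter gene Ank were lower, although Spp1 was found in 100% of cells on both sides.

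Chemokine genes were listed on both sides, by family. Of 14 chemokines and cytokines on the list, Cxcl1 and Cxcl5 were listed higher, 7 lower, and 5 had no entry. Cxcl1 was found in 42.5% against 24.3% of cells and Cxcl5 in 52.5% against 29.3%, both ligands of the neutrophil receptor CXCR2. Cxcl3, another ligand of that receptor, was off the list and was found in 31.6% against 11.4%. Cxcl2, Cxcl12 and Cxcl14, which were on the list, had no entry for cluster 5. Ccl2 and Ccl7, ligands of the monocyte receptor CCR2, were lower at 46.2% against 71.0% and at 59.1% against 80.4%. Ccl11, the eosinophil chemokine eotaxin, was lower at 43.2% against 57.8%. Counted by family name, a grouping made after the values were seen, 3 of 6 CXC and 0 of 6 CC chemokine genes in the table were higher, and 0 of 6 CXC and 3 of 6 CC genes were lower. The alarmin Il33 was lower at 21.1% against 43.3%, and so was the gene of its receptor, Il1rl1, at 26.9% against 50.1%. Csf1, the macrophage growth factor, was found in 44.9% against 68.6%, and Tslp in 14.8% against 32.9%.

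Stress-response genes of the antioxidant list were listed lower, which differs from the superoxide dismutases, which are not on it. Of 13, the 7 with an entry were all lower and 6 had none. Gsta4, a glutathione transferase, was found in 28.2% against 57.8% of cells, and Nqo1, a quinone reductase, in 29.3% against 59.1%. Hmox1 was found in 60.1% against 70.9%, Mt1 in 71.7% against 85.8% and Mt2 in 44.0% against 61.0%. The ferritin genes Fth1 and Ftl1 were found in at least 99.3% of cells on both sides, with averages 1.49-fold and 1.48-fold lower. None of 19 hypoxia and glycolysis genes, 18 cell cycle genes, 11 mitochondrially encoded genes or 75 ribosomal protein genes had an entry for the cluster. Hif1a, which is not on the hypoxia list, was higher at 88.7% against 77.6%.

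Growth factors and morphogens had entries in both directions. Of 18 genes of the TGF-beta and BMP pathway, Bmp4 and Inhba were higher and the BMP antagonist Grem1 and the BMP target Id1 were lower. Bmp4 was found in 51.0% against 26.5% of cells and Grem1 in 49.8% against 72.9%. Of 12 genes of FGF signalling and its feedback, Fgf7 and Spry4 were higher and Ccnd1 was lower. Fgf7, an epithelial growth factor made by mesenchyme, was found in 97.0% against 77.1%, with a fold of 1.87, and Spry4, a feedback inhibitor of receptor tyrosine kinases, in 71.4% against 55.2%. Of 13 paracrine factors, Tac1 was higher, and the EGF-family ligands Areg and Hbegf and the KIT ligand Kitl were lower. Hbegf was found in 15.7% against 41.2%. Of 7 Wnt and Notch genes, the secreted Wnt antagonist Sfrp2 was higher at 43.5% against 22.4%. Frzb, another secreted Wnt antagonist, was off the list and was found in 73.8% against 48.1%. Pthlh, a parathyroid hormone relative that signals in branching organs, was found in 48.0% against 19.9%.

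The other lists are given by their entries. Of 10 senescence genes and cell cycle inhibitors, Cdkn1c was higher at 86.1% against 80.4%, and Cdkn2a (40.9% against 63.2%), Cdkn2b (66.0% against 85.9%) and Mdm2 (50.5% against 65.6%) were lower. Of 9 lipid genes, Lpl, Scd1 and Clu were higher and the fatty acid carrier Fabp5 was lower at 33.5% against 53.2%. The guidance receptors Nrp1 and Nrp2 were higher, at 57.1% against 37.3% and at 91.6% against 81.8%, and their ligand gene Sema3a was lower, at 38.2% against 63.1%. Those were the 3 entries among 6 axon guidance genes. Ifitm1 and Ifitm2 were higher among 10 interferon genes, and Malat1 and Neat1 among 8 nuclear-retained RNAs. Ptgs2 and Odc1 were higher among 6 genes of the list headed prostaglandin and nucleotide enzymes, although Odc1 acts in polyamine synthesis. Of 7 neuronal genes, Tac1 was higher and Stmn2 was lower at 10.8% against 29.4%. Of 13 stromal identity genes, Cd24a, Prrx1 and Twist2 were higher and Ly6a, Cd44 and Vim were lower.

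The members outside these groups were of many kinds. On the higher side they included the thyroid hormone deiodinase Dio2, the G0/G1 switch gene G0s2, Tshz2, the protease Ctsh (88.9% against 65.2%), the mitochondrial Chchd10 (79.5% against 44.4%), the transcription factors Pitx1, Rora, Arid5b, Nr2f2 and Tead1, the transporters Slc12a2, Slc1a3, Slc6a14 and Slc38a2, the thrombin cofactor Thbd and the chaperones Hsph1 and Hspa5. On the lower side they included Crabp1, a retinoic acid binding protein found in 99.3% against 98.9% of cells with an average 1.95-fold lower, the chromatin protein Hmga2, the chaperone Cryab (45.7% against 66.8%), the receptor kinase Axl, the lamin gene Lmna, Pdpn, Efemp1, Emp1 and Emp3.

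Cluster 7, with 6.05% of the cells, shares Igfbp5 with cluster 5. It had 309 listed genes, 177 higher and 132 lower. Both clusters were compared by the authors with all other cells of the library, so these comparisons share most of their cells, and no agreement between them is counted as a result. The share in cluster 5 was set directly against that in cluster 7 for the 121 genes listed for both. At 1.5-fold, 15 genes (12.4%) had a smaller share in cluster 5 and 0 (0%) a larger one, and 106 lay within that limit.

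**Figure D4:**
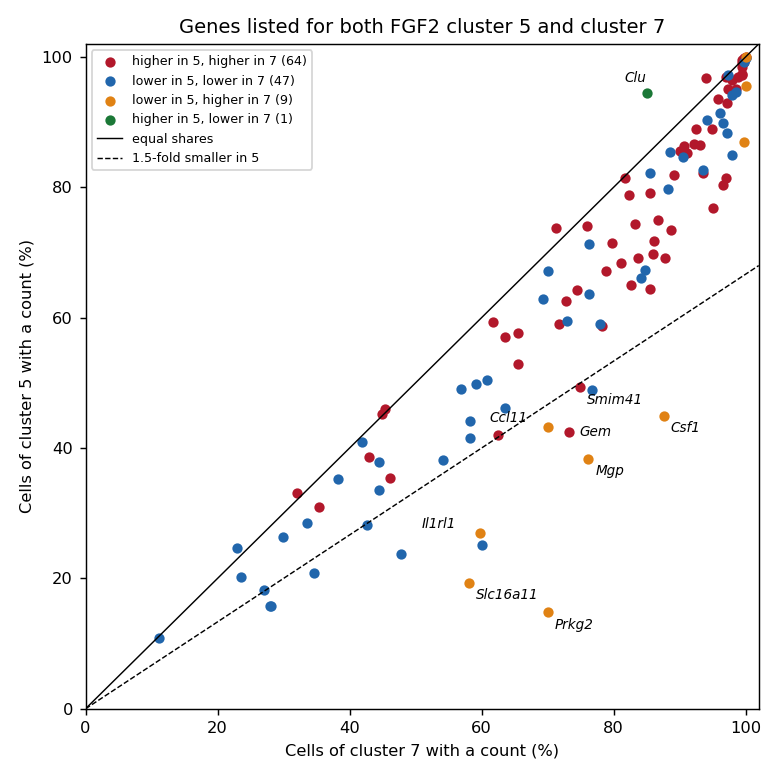
Percentage of cells with a value above 0 in cluster 5 against that in cluster 7 for the 121 genes listed for both clusters, each point 1 gene, with lines of equality and of a 1.5-fold difference. Of the 121 points, 110 lie on the side of the smaller share in cluster 5, with Prkg2 and Csf1 farthest from the line of equality and Clu the farthest on the other side.

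The 4 genes farthest apart were listed lower for cluster 5 and higher for cluster 7. Prkg2, a cGMP-dependent protein kinase, was found in 14.8% of cluster 5 cells and 70.0% of cluster 7 cells, a difference of -55.2 points. Csf1 was found in 44.9% and 87.6%, and Slc16a11, a monocarboxylate transporter, in 19.3% and 58.1%. Mgp was found in 38.3% and 76.2%. Il1rl1, at 26.9% and 59.7%, and Ccl11, at 43.2% and 70.0%, had the same pair of directions. Timp1, Fn1 and Spp1 completed this group of 9 genes, with shares of 86.9%, 95.5% and 100% in cluster 5 and 99.8%, 100% and 100% in cluster 7. The predicted gene Gm43154 and S100a10 were listed lower for both clusters, at 25.2% and 60.0% (a difference of -34.8 points) and at 48.9% and 76.8%. Gem, a small GTPase, and Smim41 were listed higher for both, at 42.4% and 73.2% (-30.8 points) and at 49.3% and 74.9%.

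Only 8 of the 121 genes had a larger share in cluster 5. Clu, the secreted chaperone clusterin, was at 94.5% against 85.0% and was the 1 gene listed higher for cluster 5 and lower for cluster 7. Sod2 followed at 96.8% against 94.0%, and Frzb at 73.8% against 71.3%. Cavin2, Gzme, Fibin, Mcpt8 and Neat1 differed by 1.7 points or less. The leading gene, Igfbp5, was found in 86.6% of cluster 5 cells and 92.2% of cluster 7 cells.

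The smaller share ran through the whole comparison. It held for 110 of the 121 genes, with a median difference of -6.6 points and a median ratio of 0.895. It held for 56 of the 64 genes that were listed higher for both clusters and for 46 of the 47 listed lower for both. The averages were more even. The ratio of averages between the clusters, with 1 added to each, was worked out from both log ratios and the clusters' parts of the cells. It had a median of 0.943 and was above 1 for 50 genes and below 1 for 71. For 42 genes the share was smaller in cluster 5 while the average was larger. Depth per cell was not known for either cluster, and its part in the smaller shares was not tested.

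**Figure D5:**
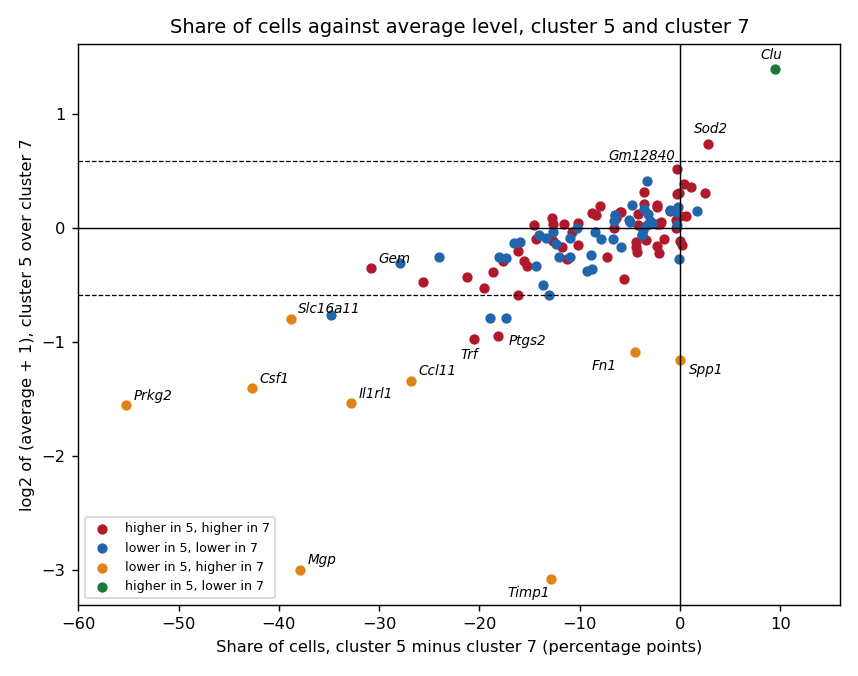
Log2 ratio of the average in cluster 5 to that in cluster 7, with 1 added to each average, against the difference in share in percentage points, each point 1 of the 121 genes listed for both clusters, coloured by its direction in each and with dashed lines at 1.5-fold. Clu (2.62-fold) and Sod2 (1.66-fold) lie above the upper dashed line, and Timp1 and Mgp lie lowest.

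The comparison of averages covers only the 121 genes listed for both clusters. Cd24a, Nr4a2, Ednrb, Lcn2 and Lpl, high in cluster 5 and without an entry for cluster 7, are outside it. By averages, 2 of the 121 genes (1.65%) were at least 1.5-fold higher in cluster 5 and 16 (13.2%) at least 1.5-fold lower. The 2 were Clu, at 2.62-fold, and Sod2, at 1.66-fold. Timp1 was 8.45-fold and Mgp 7.97-fold higher in cluster 7. Prkg2, Il1rl1, Csf1 and Ccl11 were higher in cluster 7 by 2.94-fold, 2.90-fold, 2.65-fold and 2.53-fold. Spp1 and Fn1, at or near 100% of cells in both clusters, were higher there by 2.23-fold and 2.13-fold, so their difference lay in the level per cell and not in the share. Trf (transferrin) and Ptgs2, the inducible cyclooxygenase, were listed higher for both clusters but were 1.96-fold and 1.93-fold higher in cluster 7. Fgf7, whose shares were 97.0% and 97.1%, was 1.24-fold higher in cluster 5.

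For 173 genes there was an entry for cluster 5 and none for cluster 7. These were 112 higher and 61 lower genes, and Cd24a, Nr4a2, Ednrb, Lcn2 and Lpl had the largest log ratios among them. Another 188 genes were listed for cluster 7 and not for cluster 5, 104 higher and 84 lower. The largest log ratios among those belonged to Il11, Cck, Slc29a1, Ereg and Pla1a. Il11, an interleukin 6 family cytokine, was found in 99.3% of cluster 7 cells against 76.1% of other cells, with a fold of 5.42. Slc29a1, a nucleoside transporter, was found in 75.7% against 26.5%. A gene without an entry has no share in that cluster, so these sets are not a measured difference between the clusters.

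The 3 leading genes of cluster 5 were scarcer over the whole control library. The share over all cells of a library was recovered from the listed shares, and 2323 genes had one in both. Igfbp5 was found in 44.1% of FGF2 cells and 14.9% of control cells, Cd24a in 58.3% and 8.46%, and Nr4a2 in 33.6% and 8.09%. Lcn2 was found in 43.9% and 8.79%, and Ednrb in 40.7% and 15.4%. Lpl and Igfbp3 went the other way, at 44.3% and 85.5% and at 49.1% and 75.5%. Sod2 was nearly level at 74.5% and 77.3%. Of the 141 higher genes with a share in both libraries, 29 (20.6%) had at least a 1.5-fold larger share in the FGF2 library and 11 (7.80%) a smaller one, beside 7.58% and 15.2% of all 2323. Of the 101 lower genes, 20 (19.8%) had a larger and 3 (2.97%) a smaller share. Members entered the list through their shares in the FGF2 library, which favours larger shares there, so these percentages are not read against the background. The libraries differed in number of cells, and their depth was unknown, so its part in these values was not tested.

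No single control cluster was listed for all 3 leading genes. Igfbp5 was listed higher for control cluster 1 (30.5% of its cells) and for control cluster 13 (80.8%), Cd24a for control cluster 13 (76.9%) and Nr4a2 for control cluster 10 (32.8%). Control clusters 13 and 10 were small, with 0.517% and 1.15% of the control cells. Nr4a2 had no entry for control cluster 13, so its share there is not known. The control cluster most like cluster 5 was number 1, with 14.5% of the control cells. Over the 103 genes listed for both, which are 35.0% of the genes of cluster 5 and 24.3% of those of control cluster 1, Spearman's rho of the log ratios was 0.66, a description across genes that are not independent. The next was control cluster 2, with 0.38 over 93 genes. In control cluster 1, Dcn was found in 100% against 82.2% of other control cells, Lpl in 99.7% against 83.0%, Igfbp3 in 96.2% against 71.9% and Gpm6b in 94.9% against 65.5%. Scara5 was found in 46.4% against 15.8%. The direction differed for 12 of the 103 genes. Crabp1 was lower in FGF2 cluster 5 (natural log ratio -0.67) and higher in control cluster 1 (1.76), where it was found in 96.8% against 64.3% of other control cells. Cpxm1 (-0.42 and 1.38) and Mmp13 (-0.43 and 1.19) had the same pair of directions. Fgf7 was higher in FGF2 cluster 5 (0.63) and lower in control cluster 1 (-0.31), where it was found in 50.2% against 63.7%.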

How the data were processed

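Single-cell libraries of control and FGF2 organoids were aligned by the submitters with Cell Ranger 4.0 against mm10, per the submitters' processing notes. The authors deposited 3 tables (control, FGF2, both integrated), in each of which every cluster is compared with all other cells. How cells were filtered, normalized and clustered, and how doublets were treated, the sources used here do not give. Per the file headers, the tables hold a log ratio, read as the natural log after a check on genes at 0 in several clusters, with an offset of 1 in the averages. The 2 shares are fractions deposited by the authors, printed as percentages. The p-values deposited by the authors come from cells of 1 library and are not printed. Cells per cluster, counts and depth were not known, so no interval is given.

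Python 3.11.15, pandas 2.3.3 and numpy 2.4.6 were used. A gene's share over all cells is a mean of both listed shares, weighted by the cluster's part of the cells. Least squares over 1490 genes listed for at least 2 clusters gave the parts (sum 99.95%, residual root mean square 0.0242 points). The arithmetic was tested on simulated data. The average in cluster 5 over that in cluster 7 follows from both log ratios and parts. The share in the other cells of the integrated table (1 column) was left unused. A difference was called at 1.5-fold.

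Genes were named by rule: the 3 leading genes; the 15 largest and 10 most negative log ratios; the 10 largest share differences from cluster 7 each way; the 5 largest log ratios listed for 1 of both clusters; list members; and the 5 genes most like Igfbp5. Other named genes were chosen after their values were seen. The members and lists were chosen with earlier results of these data known. Alternatives were the authors' adjusted p-value under 0.05, a log ratio of 0.5, a share of 50%, other gene sets for the parts, 2-fold, 10 points, averages in place of shares, middle shares only and shares divided by their median ratio.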

Additional observations from a re-analysis of the deposited data

How the results depend on the processing

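Asking for a natural log ratio of 0.5 or more either way left 49 of the 177 higher and 34 of the 117 lower genes. The authors' adjusted p-value under 0.05 left 176 and 117, and a larger share of at least 50% left 142 and 99. The part of cluster 5 stayed at 7.33% over both other gene sets. Against cluster 7, the 15 genes with a smaller share became 5 at 2-fold and 50 at a difference of 10 points. By averages the count was 16, but of partly other genes. Gem, S100a10 and Smim41, among those with a smaller share, were less than 1.5-fold lower by average. Timp1, Spp1 and Fn1, within the limit by share, were called by average. The 15 became 13 among genes with a mean share of 25 to 75%. After dividing by the median ratio, an alternative chosen after seeing the data, they were 10. The 0 genes with a larger share became 2 by averages and stayed at 0 otherwise. No paired analysis was possible because each group had 1 library. No test was run, and unknown depth limits every share.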

Other observations

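The genes whose log ratio over the FGF2 clusters ordered most like that of Igfbp5 were Trf, Lcn2, Lbp, Rgs2 and Slpi, of 139 genes listed for at least 8 of the same clusters. Spearman's rho was 0.905 over 8 clusters for Trf, 0.830 over 10 for Lcn2, 0.810 over 8 for Lbp and for Rgs2, and 0.80 over 9 for Slpi. Lcn2, Lbp and Rgs2 had no entry for cluster 7, so their rho leaves out the cluster where Igfbp5 was highest (natural log ratio 1.87). The clusters share 1 library, and each is compared with cells of the others. All 5 genes were on the higher list of cluster 5. Lcn2 was also found in 78.0% of the cells of cluster 11, which carried epithelial markers, so the likeness to Igfbp5 takes in that cluster as well as cluster 5.

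After integration of both libraries, Igfbp5, Cd24a and Nr4a2 had positive log ratios together in integrated cluster 1. The natural log ratios were 2.04, 0.88 and 0.74. Igfbp5 was found in 77.1% of its cells, Cd24a in 75.3% and Nr4a2 in 59.9%. The shares were larger in integrated cluster 2, at 80.5%, 90.1% and 80.4%, although all 3 log ratios were negative there. The sources used here do not say which values these ratios were made from, and they are not read as differences in expression.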
